A study of Homo sapiens with 16 samples.

Results

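Noncoding transcripts were taken as the entries of the deposited count tables whose RefSeq accession starts with NR_, the prefix that RefSeq gives to RNAs without an annotated protein product. They were 843 of 10304 transcripts, the other 9461 being coding (NM_). Nascent transcription was measured by PRO-seq, in which engaged RNA polymerases add a biotin-labelled nucleotide to the RNA they hold, so that reads report transcription in progress and not RNA abundance. The cells were Kasumi-1, established from acute myeloid leukaemia with a RUNX1-RUNX1T1 fusion. SMARCA5, the motor subunit of ISWI chromatin remodelling complexes, bore an FKBP12F36V tag on both alleles, and dTAG-47, given at 500 nM, degrades proteins with that tag. Tagged cells without dTAG-47 gave 5 libraries (0 h), and cells treated for 2, 6 and 24 h gave 3, 4 and 2 libraries. All 14 libraries therefore carry the tag, and the 2 parental samples were not analysed here. Nothing in the sources says that libraries of a group came from separate cultures, so the p-values measure only the spread between these libraries, which may be technical.

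The column names hold a run code, and the libraries fell into 3 runs: run 1 with 2 libraries at 0 h and 1 at 2 h, run 2 with 2 libraries at each of the 4 times, and run 3 with 1 library at 0 h and 2 at 6 h. A run term was part of every model. Gene-body counts summed to between 11182894 and 34209362 reads per library and promoter-proximal counts to between 1667950 and 7171601. Of 7 Kasumi-1 marker symbols 6 were measured, RUNX1T1 being absent from the tables, and of 9 markers of other lineages only EPCAM was, at 29.6 CPM (read counts scaled by library size) at 0 h. Some of these markers changed with treatment in gene bodies. EPCAM changed by -0.73, -0.50 and -0.63 on the log2 scale at 2, 6 and 24 h (edgeR, adjusted p 0.00018, 0.0022 and 0.0031), and KIT, a receptor kinase gene, by -0.56, -0.34 and -0.20. Both RUNX1 transcripts were lower at each time, by changes of -0.26 to -0.38. At 24 h CD33 and CD34, surface antigen genes of myeloid and progenitor cells, rose by 0.85 and 0.80, and MPO, the myeloperoxidase gene, by 0.31. SPI1 was called at no time. The part of these marker changes in the results was not tested. In bulk libraries, fewer cells that transcribe a gene and less transcription per cell cannot be told apart.

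Noncoding transcription takes several forms. Antisense RNAs run against a coding gene, and divergent transcripts start back to back with one from a shared promoter. Intergenic RNAs, often given LINC names, lie apart from coding genes. Host transcripts carry microRNAs or small nucleolar RNAs in their introns or exons. Many such RNAs are short-lived, so nascent reads record them better than steady-state RNA does. ISWI remodellers slide nucleosomes into evenly spaced arrays, including the arrays that flank promoters.

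The results below turn on a few promoters and on the hosts of microRNAs with known roles in blood cells. The promoter windows run from 250 bases before to 50 after the annotated start (RefSeq, GRCh38.p14), and capitals mark matches on either strand to GGGCGG (the GC box), to CCAAT (the site of NF-Y), to ACGTG (the core of the hypoxia response element) or to TATAAA (the TATA box). SLC2A1-DT is shown because its window at chr1:42958799-42959098 (plus strand) shares 280 of its bases with that of SLC2A1, the glucose transporter gene on the opposite strand. DNAJC27-AS1, at chr2:24971862-24972161 (plus strand), shares 117 bases with DNAJC27. SBF2-AS1, at chr11:9758043-9758342 (plus strand), starts 546548 bases from the start of SBF2 and shares none. LINC00265, at chr7:39733318-39733617 (plus strand), is shown as an intergenic RNA whose reads rose at every time. In LINC00265 a GC box on the minus strand overlaps ACGTG by 1 base.
SLC2A1-DT: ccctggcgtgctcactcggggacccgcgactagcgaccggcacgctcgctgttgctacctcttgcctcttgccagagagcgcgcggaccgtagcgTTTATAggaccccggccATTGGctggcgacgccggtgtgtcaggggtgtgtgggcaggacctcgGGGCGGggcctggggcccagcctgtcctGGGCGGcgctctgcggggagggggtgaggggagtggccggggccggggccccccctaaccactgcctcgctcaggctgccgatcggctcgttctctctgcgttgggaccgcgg
DNAJC27-AS1: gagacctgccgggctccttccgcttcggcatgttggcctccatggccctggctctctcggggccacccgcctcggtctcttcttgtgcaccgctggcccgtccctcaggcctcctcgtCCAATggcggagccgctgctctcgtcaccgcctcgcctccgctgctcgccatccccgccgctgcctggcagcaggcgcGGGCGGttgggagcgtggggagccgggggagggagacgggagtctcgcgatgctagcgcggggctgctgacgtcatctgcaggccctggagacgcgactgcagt
SBF2-AS1: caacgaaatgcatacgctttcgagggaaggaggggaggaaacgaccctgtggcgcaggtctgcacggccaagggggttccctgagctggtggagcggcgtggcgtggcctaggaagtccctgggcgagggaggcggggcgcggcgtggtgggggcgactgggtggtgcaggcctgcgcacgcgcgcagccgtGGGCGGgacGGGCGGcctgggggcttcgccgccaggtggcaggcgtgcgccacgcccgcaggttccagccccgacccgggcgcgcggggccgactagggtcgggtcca
LINC00265: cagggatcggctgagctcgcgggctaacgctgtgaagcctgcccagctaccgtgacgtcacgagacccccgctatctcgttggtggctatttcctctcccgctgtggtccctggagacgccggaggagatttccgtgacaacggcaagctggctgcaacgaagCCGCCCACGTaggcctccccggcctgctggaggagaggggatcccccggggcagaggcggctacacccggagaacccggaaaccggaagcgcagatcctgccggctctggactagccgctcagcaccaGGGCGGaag

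These windows were 72.3%, 71.7%, 74.3% and 66.7% GC. Of the 581 noncoding transcripts matched to a RefSeq promoter, 66.8% held GGGCGG, 36.5% CCAAT, 27.5% ACGTG and 5.16% TATAAA. Over all 27305 promoters of the same length in the table the shares were 44.6%, 35.7%, 21.6% and 11.95%. Median GC content was 64.3% in the noncoding transcripts' windows and 58.3% over all. Of the 581, 349 belonged to noncoding genes, and 64.8% of these held GGGCGG. The 27305 were not limited to transcripts counted here, so the sets differ in more than coding. Promoters of the coding transcripts counted here were not examined as a set, and the source of the contrast was not tested. A match describes letters only and is not a site.

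The microRNAs of the 4 hosts described below are given with the seed, bases 2 to 8, in capitals. MIR17HG carries the miR-17~92 cluster, DLEU2 the miR-15a and miR-16 pair, MIR155HG miR-155, and MIR181A1HG (listed as LOC100131234) a miR-181a and miR-181b pair. miR-17-5p and miR-20a-5p share a seed, as do miR-19a-3p and miR-19b-3p, miR-15a-5p and miR-16-5p, and the miR-181 pair. The tables measure nascent transcription of the hosts, not the microRNAs.
miR-17-5p: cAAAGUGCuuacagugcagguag
miR-20a-5p: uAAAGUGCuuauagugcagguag
miR-18a-5p: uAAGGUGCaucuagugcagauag
miR-19a-3p: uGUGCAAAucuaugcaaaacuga
miR-19b-3p: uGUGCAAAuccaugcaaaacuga
miR-92a-3p: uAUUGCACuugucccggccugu
miR-15a-5p: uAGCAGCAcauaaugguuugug
miR-16-5p: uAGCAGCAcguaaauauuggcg
miR-155-5p: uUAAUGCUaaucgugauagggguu
miR-181a-5p: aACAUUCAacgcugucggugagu
miR-181b-5p: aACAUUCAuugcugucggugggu

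By symbol, the 843 transcripts comprised 54 antisense names, 16 LINC names, 292 LOC names, 10 hosts of small nucleolar RNAs (GAS5 and SNHG names), 7 microRNA hosts and 464 others. The NR_ prefix does not mark only noncoding genes. By RefSeq gene type 442 belonged to noncoding genes, 129 to pseudogenes and 263 to coding genes, as noncoding isoforms, and 9 matched no gene. Of the 16 LINC names 4 belonged to coding genes. Reads of a noncoding isoform may come from coding isoforms of the same gene. Overlap with a coding transcript was seen for 184 (21.8%), 167 of them on the opposite strand, against 869 (9.19%) of the coding transcripts. Of the antisense names 24 of 54 overlapped one, and of the LINC names 3 of 16. Another 659 were separate from their nearest coding transcript, at a median distance of 11718 bp. The strand that was counted is not given in the sources used here, so reads of overlapping or closely divergent pairs cannot be told apart.

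Noncoding transcripts were transcribed at lower levels than coding ones in untreated cells, and the gap was small per length. Their median gene-body level at 0 h was 29.1 CPM (interquartile range 8.97 to 80.5), against 54.8 CPM for coding transcripts. Their median span was also shorter, 14428 against 25958 bp, and the medians per kilobase were 1.72 and 1.96 CPM. The hosts of small nucleolar RNAs stood highest, with a median of 14.3 CPM per kilobase over 10 transcripts, followed by the microRNA hosts at 3.84. LINC, LOC and antisense transcripts had medians of 0.921, 1.45 and 1.48 CPM per kilobase. DANCR, which also hosts a small nucleolar RNA, reached 126 CPM per kilobase, MALAT1, a nuclear speckle RNA, 65.5, and NEAT1, the scaffold of paraspeckles, 51.9.

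Reads near the promoter made up a larger share of a noncoding transcript's reads, with a median of 16.5% against 12.8% for coding transcripts. The share was 61.9% for hosts of small nucleolar RNAs, 24.6% for antisense and 21.5% for LOC transcripts. Shorter transcripts have fewer gene-body bases. With all transcripts put in 4 equal bins by span, shortest first, the noncoding medians were 35.87%, 17.65%, 10.19% and 5.09%. The coding medians in the same bins were 36.35%, 17.92%, 10.16% and 4.05%. The part of length in this share was not tested.

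The share of all gene-body reads that fell on noncoding transcripts lay between 5.63% and 6.23%. In run 1 it was 5.63% and 5.84% at 0 h and 6.23% at 2 h. In run 2 it was 5.89% and 5.88% at 0 h, 5.96% and 6.09% at 2 h, 5.87% and 5.88% at 6 h, and 5.98% and 5.94% at 24 h. Run 3 gave 5.91% at 0 h and 6.10% and 6.03% at 6 h. Every library at 2 and 24 h, and both 6 h libraries of run 3, thus lay above the 0 h libraries of the same run, while both 6 h libraries of run 2 did not. The range over libraries was 7.72% to 9.16% near promoters.

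**Figure D1:**
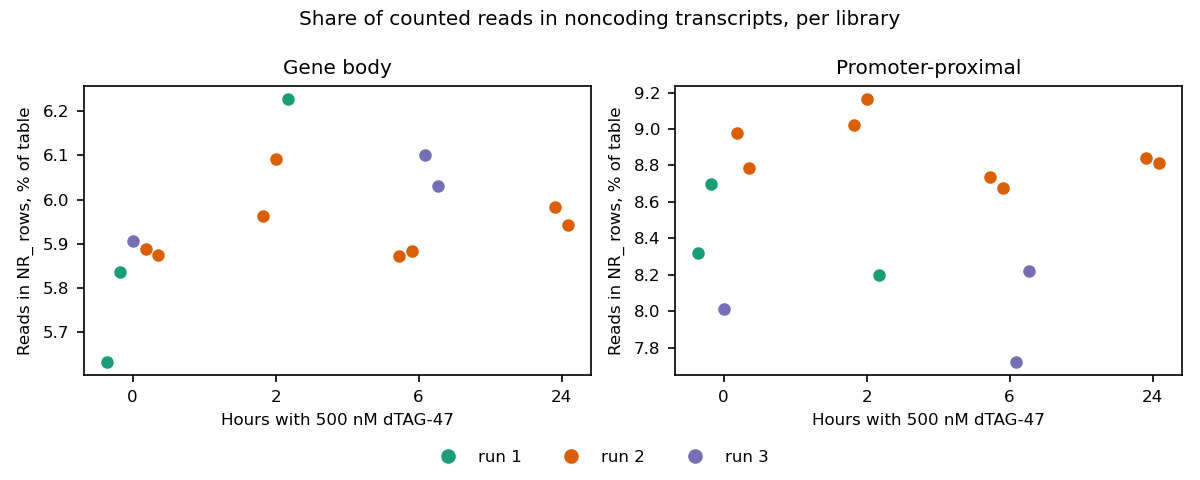
Share of each library's reads on noncoding transcripts (y axis, %), by hours of dTAG-47 (x axis) and coloured by run, for gene bodies and promoter-proximal regions; each point is 1 library. In gene bodies the 2 h libraries lie above the 0 h libraries of their run, and all points lie between 5.63% and 6.23%.

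In gene bodies more noncoding transcripts rose than fell at each time (edgeR quasi-likelihood test, Benjamini-Hochberg adjusted p under 0.05 over all transcripts). At 2 h 200 rose and 94 fell (23.7% and 11.2%), where 38.6% of all 10304 transcripts were called, 19.7% higher and 18.9% lower. At 6 h 142 rose and 97 fell, where 26.8% of all transcripts were called, 13.5% higher and 13.4% lower. At 24 h 137 rose and 51 fell, where 19.8% were called, 10.8% higher and 9.08% lower. The 3 comparisons share the 0 h libraries. Median log2 changes of the noncoding transcripts were 0.07, 0.06 and 0.09, against 0.01 at each time for coding transcripts.

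Within runs, 60.0% of noncoding transcripts lay above the same run's 0 h level at 2 h in run 1 and 59.7% in run 2. The share was 56.1% in run 2 and 57.5% in run 3 at 6 h, and 59.1% in run 2 at 24 h. For coding transcripts these shares lay between 50.1% and 51.4%. The size of single changes differed between runs. At 2 h 126 noncoding transcripts changed more upward and 81 more downward in run 1 than in run 2, where 28.3% of all transcripts were called, 13.8% higher and 14.5% lower. At 6 h 2 were higher and 3 lower in run 3 than in run 2, where 0.437% were called, 0.378% higher and 0.0582% lower. Without the 2 h library of run 1 the 2 h count was 90 higher and 74 lower, and without a run term it was 82 and 40. The 6 h total of 239 was 146 without the 0 h library of run 3, 141 without the 6 h library A of run 2 and 130 without library B. At 24 h, with only 2 libraries, the total of 188 was 52 without library A and 74 without library B.

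**Figure D2:**
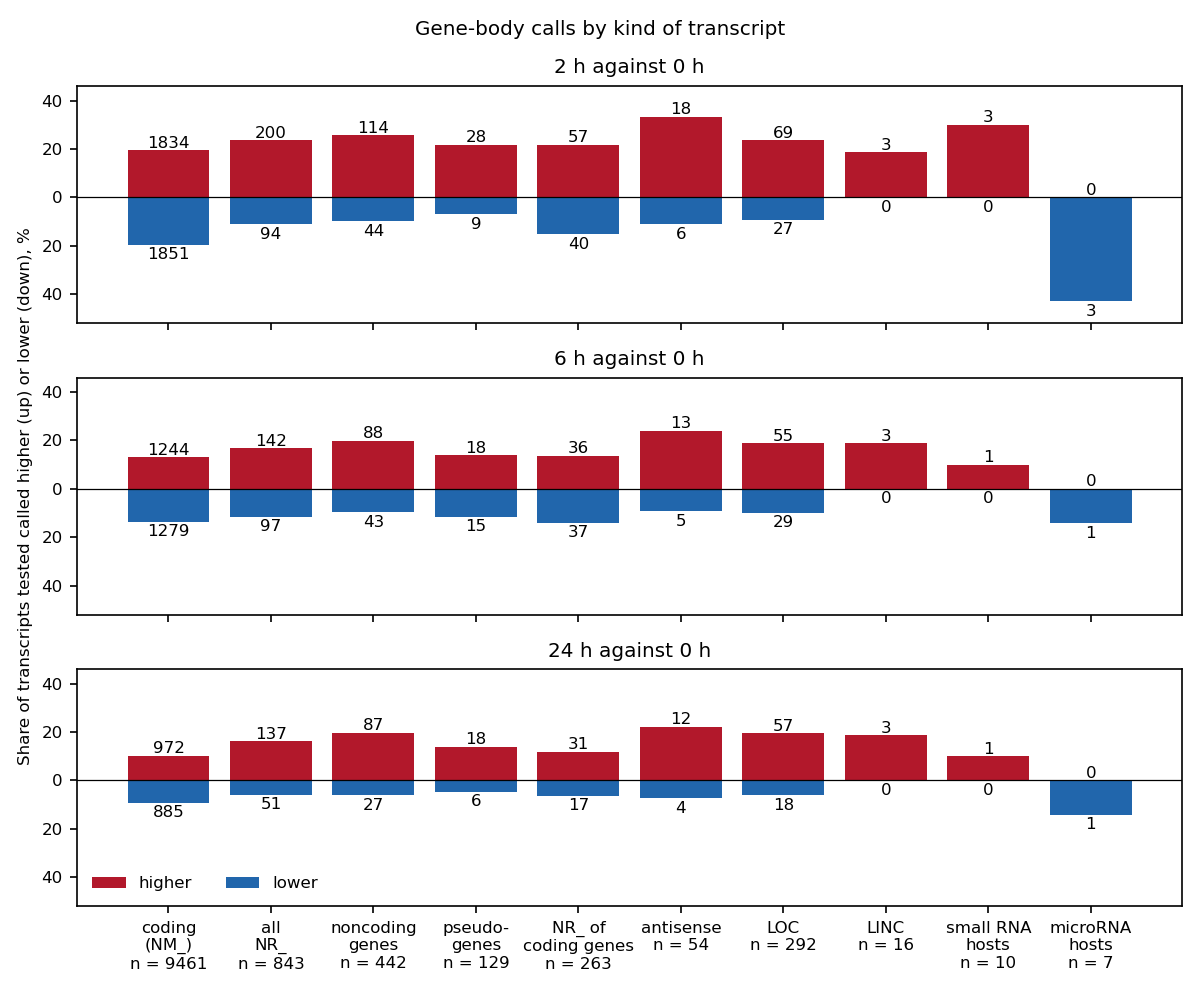
Share of transcripts called higher (up) or lower (down) in gene bodies at 2, 6 and 24 h (y axis, %), by kind of transcript, with the number called at each bar and the number tested under each name. Red exceeds blue at each time for noncoding genes, pseudogenes, hosts of small nucleolar RNAs, and antisense, LOC and LINC names. It does not for noncoding isoforms of coding genes at 6 h or for microRNA hosts, and the coding bars are nearly even.

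By gene type, 114, 88 and 87 of the 442 transcripts of noncoding genes rose at 2, 6 and 24 h and 44, 43 and 27 fell. The 129 pseudogene transcripts showed 28, 18 and 18 rises and 9, 15 and 6 falls. The 263 noncoding isoforms of coding genes showed 57, 36 and 31 rises and 40, 37 and 17 falls. Of the 54 antisense names 18, 13 and 12 rose and 6, 5 and 4 fell. Of the 292 LOC names 69, 55 and 57 rose and 27, 29 and 18 fell. Among 16 LINC names 3 rose at each time and 0 fell by edgeR or DESeq2, with 0, 0 and 1 lower at an unadjusted p under 0.05. Over all transcripts 19.7%, 13.5% and 10.8% were higher at these times and 18.9%, 13.4% and 9.08% lower. Differences between classes, or of a class from all transcripts, were not tested.

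Read depth differed between the sets. All transcripts were put in 4 equal bins by mean count. At 2 h 25.6% of the noncoding transcripts in the lowest bin rose and 7.39% fell, against 28.7% and 6.92% of the coding ones. In the highest bin 13.5% of noncoding transcripts rose and 22.7% fell, against 8.09% and 38.8% of coding ones. In the shortest of 4 bins by span the shares were 23.1% and 6.34% for noncoding and 31.8% and 4.35% for coding transcripts. The direction thus moved with count and span in both sets, and the part of either in the noncoding excess was not tested.

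**Figure D3:**
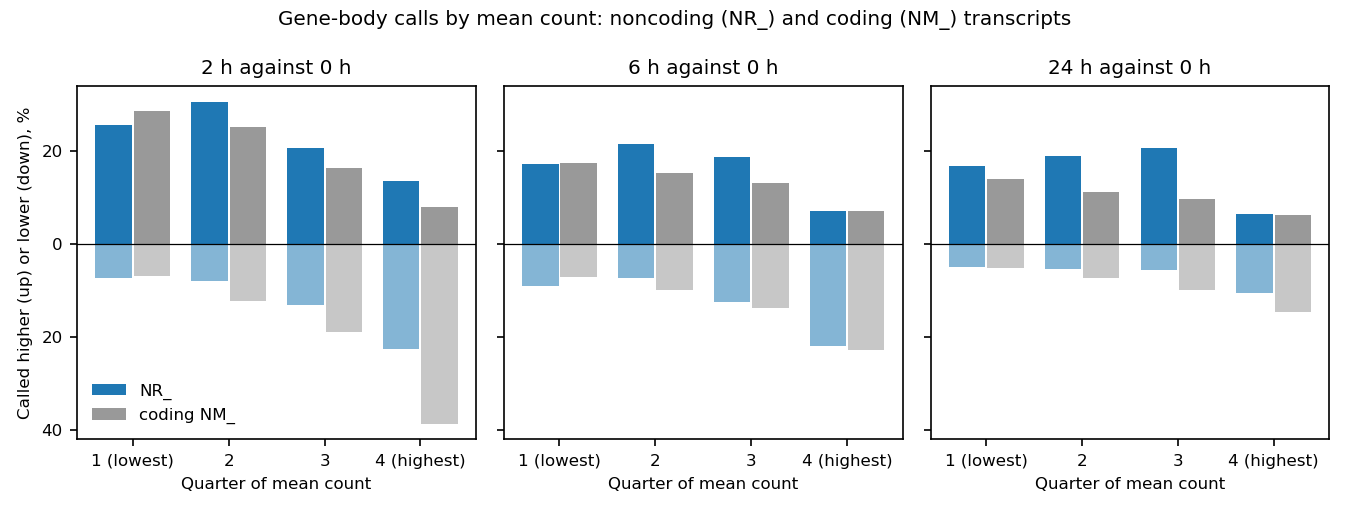
Share of transcripts called higher (up, dark) or lower (down, pale) in gene bodies at 2, 6 and 24 h (y axis, %) by mean count in 4 bins, bin 1 being the lowest (x axis), for noncoding (blue) and coding (grey) transcripts. Rises outnumber falls in the lowest bin and falls outnumber rises in the highest, in both sets.

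At all 3 times 79 noncoding transcripts rose and 32 fell, where 5.81% and 6.12% of all transcripts did so. Of the 79, 51 belonged to noncoding genes, 21 to coding genes and 7 to pseudogenes. Another 445 were called at no time, of which 116 had an unadjusted p under 0.05 at 1 time or more. Of the noncoding transcripts, 2 were called higher at 1 time and lower at another. Calls at no time or in opposite directions were not counted over all transcripts, so no comparison with them is drawn.

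DNAJC27-AS1 (chr2:25194981-25262563, hg19) lies back to back with DNAJC27, a small GTPase gene, with starts 18 bp apart. It stood at 16.6, 16.6, 18.4, 15.9 and 16.5 CPM at 0 h, 25.9, 27.4 and 36.5 at 2 h, 32.9, 35.5, 26.6 and 32.9 at 6 h, and 34.6 and 37.2 at 24 h. Every treated library lay above every 0 h library. The log2 changes were 0.84 ± 0.12, 0.99 ± 0.12 and 1.16 ± 0.15 (SE; adjusted p 0.00032, 0.00012 and 0.00023). DNAJC27 itself ranged from 40.7 to 52.5 CPM over the 14 libraries, with changes of -0.07, 0.02 and -0.01 that did not pass. The difference between the pair was 0.89, 0.96 and 1.15 (limma, adjusted p 0.000706, 0.000334 and 0.00064).

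SLC2A1-DT (listed as FLJ32224, chr1:43424720-43449029, hg19), whose window is printed above, moved against SLC2A1. Its gene-body level was 5.97, 7.26, 5.76, 8.16 and 8.01 CPM at 0 h, 9.73, 8.76 and 10.6 at 2 h, 14.2, 14.96, 19.9 and 15.5 at 6 h, and 18.1 and 16.8 at 24 h. The 6 and 24 h libraries all lay above the 2 h libraries, and these above the 0 h libraries. SLC2A1 read 82.4, 101, 96.7, 122 and 114 CPM at 0 h, 59.5, 62.8 and 61.1 at 2 h, 62.2, 63.5, 73.9 and 62.8 at 6 h, and 72.2 and 75.5 at 24 h. No treated library of SLC2A1 reached the lowest 0 h library.

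SLC2A1-DT rose by 1.20 ± 0.17 at 6 h and 1.33 ± 0.19 at 24 h on the log2 scale (adjusted p 0.00025 and 0.00057). Its 2 h value of 0.49 ± 0.16 (adjusted p 0.028) did not pass without the 2 h library of run 1 (0.24) or without the 0 h library A of run 1 (0.06), and ranged from 0.0175 to 0.329 over the alternatives. SLC2A1 changed by -0.76 ± 0.10, -0.71 ± 0.10 and -0.55 ± 0.13 (adjusted p 0.00023, 0.00038 and 0.0091). The difference between the pair was 1.22, 1.89 and 1.85 (limma, adjusted p 3.86e-05, 2.45e-06 and 1.95e-05), and it passed under each of the 19 alternatives at each time.

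LINC00265 (chr7:39773167-39834222, hg19), an intergenic RNA 25444 bp from RALA, read 25.9, 20.9, 33.5, 37.4 and 35.2 CPM at 0 h, 55.9, 60.4 and 49.7 at 2 h, 61.8, 61.3, 56.1 and 60.0 at 6 h, and 70.6 and 62.5 at 24 h. Treated and 0 h libraries did not overlap. It rose by 0.84 ± 0.10, 0.83 ± 0.10 and 0.95 ± 0.12 (adjusted p 8e-05, 9.2e-05 and 0.0002). RALA, a small GTPase gene, changed by 0.15, 0.17 and 0.17 and did not pass.

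DDX11-AS1 (LOC100506660), which starts beside the DNA helicase gene DDX11, rose by 0.76 ± 0.10, 0.75 ± 0.10 and 0.87 ± 0.12. Its 0 h libraries read 19.9, 17.9, 27.5, 25.9 and 26.4 CPM and its treated libraries 36.6 to 47.6, with no overlap. DDX11 changed by 0.22, 0.10 and 0.25 and did not pass. The pseudogene transcript LOC146880 rose by 0.58 ± 0.07, 0.65 ± 0.07 and 0.77 ± 0.09, from 61.6 to 93.3 CPM at 0 h to 97.2 to 119 after treatment. The coding neighbour LRRC37A3 also rose, by 0.52 ± 0.14, 0.62 ± 0.14 and 0.54 ± 0.17 (edgeR, adjusted p 0.011, 0.0076 and 0.043). LINC01569 (LOC100507501) rose by 0.64 ± 0.09 and 0.71 ± 0.09 at 2 and 6 h, from 23.0 to 28.0 CPM at 0 h to 33.4 to 45.04. Its neighbour TFAP4, a transcription factor gene 3397 bp away, changed by -0.31 ± 0.11 and -0.36 ± 0.11, and the difference of the pair was 0.94 and 1.06 (limma, adjusted p 6.88e-05 and 1.62e-05).

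Also among those that rose most were 2 transcripts of genes that RefSeq now types as coding. LOC728743 (chr7:150102840-150109558, hg19) read 7.43, 9.44, 16.8, 12.5 and 9.40 CPM at 0 h and 25.6 to 59.5 in the 9 treated libraries. It rose by 1.45 ± 0.14, 1.61 ± 0.14 and 1.68 ± 0.17 (adjusted p 2.9e-05, 1.1e-05 and 4.2e-05). The coding neighbour ZNF775 rose by 0.67 ± 0.16 at 2 h (edgeR, adjusted p 0.0057) and changed by 0.29 and 0.25 later, which did not pass. The NR_ isoform of CALHM2, a calcium homeostasis modulator gene, rose by 1.04 ± 0.18, 0.98 ± 0.18 and 1.09 ± 0.22, from 6.29 to 9.96 CPM at 0 h to 14.4 to 22.0.

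ITGB2-AS1 (LOC100505746, chr21:46340950-46349595, hg19) overlaps ITGB2, the gene of the shared beta chain of leukocyte integrins, by 7803 bp. It read 3.27, 3.93, 2.46, 4.43 and 2.30 CPM at 0 h, 4.23, 6.49 and 7.62 at 2 h, 7.94, 8.48, 4.40 and 5.17 at 6 h, and 12.8 and 16.1 at 24 h. The 24 h libraries lay above all others, while the 2 and 6 h libraries touched the 0 h range. It rose by 1.22 ± 0.22 at 6 h and 2.11 ± 0.25 at 24 h (adjusted p 0.0016 and 0.00014). At 2 h it changed by 0.80 (adjusted p 0.01), and by a value that did not pass without the 2 h library of run 1 (0.16). ITGB2 rose by 0.87 ± 0.20 at 24 h (adjusted p 0.0099), so both members of the pair were higher.

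The steepest fall among the named transcripts was that of LOC254896 (chr8:22941868-22961070, hg19), a noncoding gene 32034 bp from TNFRSF10D, a decoy receptor for TRAIL. It read 11.5, 13.6, 14.5, 10.3 and 9.49 CPM at 0 h, 4.68, 6.14 and 4.40 at 2 h, 2.91, 2.36, 2.10 and 1.92 at 6 h, and 0.981 and 1.38 at 24 h. Each later group lay wholly below the earlier ones. It changed by -1.23 ± 0.20, -2.42 ± 0.21 and -3.31 ± 0.31 (adjusted p 0.00065, 7.4e-06 and 3.1e-05).

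SBF2-AS1 (LOC283104, chr11:9779840-9832866, hg19) runs against SBF2, a myotubularin-related gene, over 32652 bp. It read 60.6, 60.8, 61.8, 74.1 and 70.2 CPM at 0 h, 46.4, 45.5 and 38.6 at 2 h, 39.1, 40.03, 37.1 and 37.5 at 6 h, and 42.6 and 45.2 at 24 h. All treated libraries lay below all 0 h libraries. It fell by 0.64 ± 0.07, 0.81 ± 0.07 and 0.70 ± 0.08 on the log2 scale (adjusted p 3.9e-05, 5.4e-06 and 0.00014). SBF2 changed by -0.13, 0.29 and 0.25, of which the 6 h value passed (adjusted p 0.012). The pair differed by -0.51, -1.11 and -0.95 (limma, adjusted p 0.00332, 2.57e-05 and 0.000415).

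BALR6 (LOC339862, chr3:18055147-18310410, hg19), a long noncoding gene first named in B-cell leukaemia, fell at each time. It read 756, 685, 465, 672 and 681 CPM at 0 h, 448, 420 and 417 at 2 h, 427, 437, 264 and 295 at 6 h, and 414 and 431 at 24 h. The 465 CPM of the run 3 library at 0 h stood apart from the other 0 h libraries but above every treated library. It changed by -0.71 ± 0.06, -0.70 ± 0.06 and -0.72 ± 0.07 (adjusted p 1.2e-05, 5.9e-06 and 3.9e-05). Without a run term the 24 h value did not pass (0.057). SATB1, a chromatin organiser gene 78723 bp away, changed by -0.48 and -0.26 at 2 and 6 h (adjusted p 0.00025 and 0.01).

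EPB41L4A-AS1 fell by 0.69 ± 0.13, 0.83 ± 0.13 and 1.08 ± 0.17 on the log2 scale, from 15.7 to 30.3 CPM at 0 h to 11.9 and 12.9 at 24 h. VPS9D1-AS1 (LOC100128881, chr16:89778264-89784573, hg19) lies wholly within VPS9D1 (listed as C16orf7) and moved against it. It read 17.9, 25.7, 23.5, 19.2 and 21.9 CPM at 0 h, 11.96, 11.7 and 16.2 at 2 h, 9.26, 8.77, 14.5 and 13.4 at 6 h, and 11.0 and 11.5 at 24 h. All treated libraries lay below the 0 h range, while those of C16orf7 rose from 12.9 to 30.9 CPM at 0 h to 32.5 to 53.1.

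VPS9D1-AS1 changed by -0.59 ± 0.14 and -0.96 ± 0.14 at 2 and 6 h (adjusted p 0.0056 and 0.00045), and C16orf7 by 0.72 ± 0.15, 1.26 ± 0.16 and 1.30 ± 0.18. The 24 h value of VPS9D1-AS1, -0.74 ± 0.18 (adjusted p 0.012), did not pass without either 24 h library (0.11 without A, 0.075 without B). The difference of the pair was -1.32, -2.24 and -2.03 (limma, adjusted p 0.000129, 5.64e-06 and 3.62e-05) and passed under every alternative run for it. On opposite strands, 11 noncoding transcripts lay wholly or almost wholly inside their nearest coding transcript. The read density of the noncoding against the coding transcript had a median ratio of 1.14 and a lowest of 0.212.

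**Figure D4:**
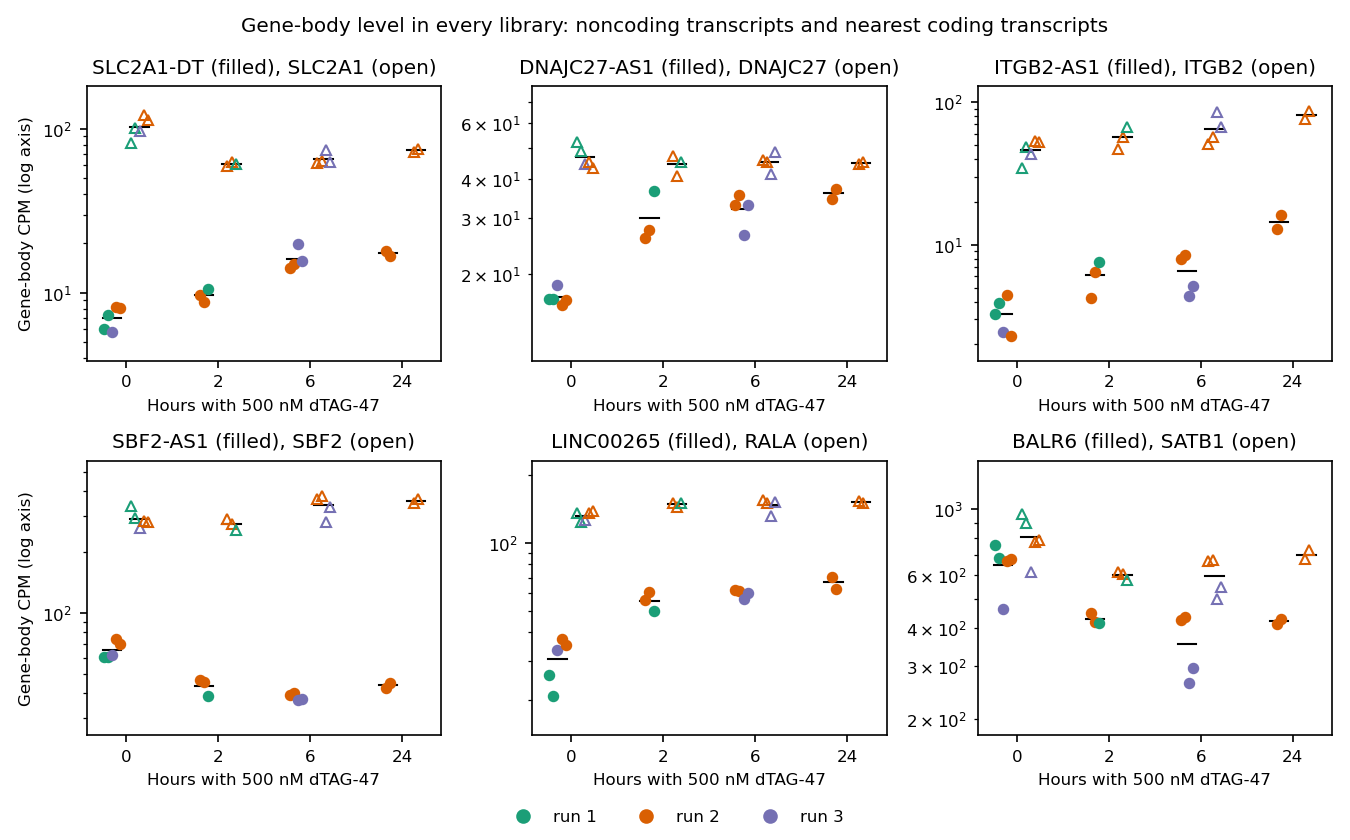
Gene-body level (y axis, CPM, log scale) by hours of dTAG-47 (x axis) for 6 noncoding transcripts (filled circles) and their nearest coding transcripts (open triangles); each point is 1 library, coloured by run, and bars are group means. DNAJC27-AS1 and LINC00265 lie above their 0 h libraries at every later time and SBF2-AS1 lies below, and SLC2A1-DT climbs while SLC2A1 drops.

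Some transcripts changed late. MCM3AP-AS1, antisense to the messenger RNA export factor gene MCM3AP, read 96.2 to 124 CPM at 0 h and 94.8, 97.2 and 128 at 2 h, and then 65.2, 66.2, 99.2 and 101 at 6 h and 70.9 and 70.7 at 24 h. Its change was 0.02 ± 0.07 at 2 h and -0.47 ± 0.07 and -0.43 ± 0.08 later (adjusted p 0.00037 and 0.0041). The run 3 libraries at 6 h lay within the 0 h range of all runs but below the 123 CPM of their own run. MCM3AP changed by -0.04, -0.14 and -0.07 and did not pass. PARD6G-AS1 (LOC100130522) fell by 0.85 ± 0.07 and 0.76 ± 0.09 on the log2 scale at 6 and 24 h, and its neighbour ADNP2, a homeobox gene 7579 bp away, changed by -0.83, -1.09 and -1.07. SPAG5-AS1 rose by 1.06 ± 0.14 at 6 h (adjusted p 0.00019), from 5.07 to 8.67 CPM at 0 h to 12.2 to 14.8.

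Tests between treated times called few members. From 2 to 6 h 3 were higher and 8 lower, where 1.58% of all transcripts were called, 1.01% higher and 0.573% lower. LOC254896 (-1.18), PARD6G-AS1 (-0.67) and MCM3AP-AS1 (-0.49) were among those lower. From 2 to 24 h 20 were higher and 9 lower, where 4.08% were called, 3.03% higher and 1.05% lower. LOC254896 was at -2.08 and BAALC-AS2 at 0.94. The 24 h libraries all belonged to run 2, and the 2 h libraries to runs 1 and 2. For BAALC-AS2 the 2 h change in run 1 minus that in run 2 was -0.77, and the part of run in its 0.94 was not tested. From 6 to 24 h edgeR called none of the 843, where 0.175% of all transcripts were called, 0.146% higher and 0.0291% lower, and 69 of the 843 had an unadjusted p under 0.05.

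Other transcripts were called early and not at 24 h. OLMALINC (LINC00263), 8745 bp from the stearoyl-CoA desaturase gene SCD, read 14.7, 12.7, 16.6, 14.4 and 17.1 CPM at 0 h, 25.3, 27.1 and 45.2 at 2 h, 17.1, 20.6, 27.8 and 34.2 at 6 h, and 14.96 and 12.6 at 24 h. It rose by 1.23 ± 0.17 at 2 h (adjusted p 0.00031), with 1.72 in run 1 and 0.74 in run 2. SCD rose by 0.998 ± 0.22 at 2 h (adjusted p 0.0038) and changed by 0.03 and -0.38 later. SNAI3-AS1 (MGC23284) rose by 1.06 ± 0.20 at 2 h (adjusted p 0.0019), with 1.88 in run 1 and 0.39 in run 2. BAALC-AS2 (C8orf56), against the leukaemia-associated gene BAALC, changed by -0.76 ± 0.12 at 6 h (adjusted p 0.00083) and 0.01 ± 0.15 at 24 h. BAALC changed by -0.55 ± 0.08 and -0.36 ± 0.10 at those times.

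Of the 7 microRNA hosts 3 fell at 2 h and 1 at each later time, where 18.9%, 13.4% and 9.08% of all transcripts were lower. MIR181A1HG, counted by its LOC name, fell at 2 h too. By edgeR or DESeq2 0 of the 7 rose, with 0, 1 and 0 higher at an unadjusted p under 0.05. MIR17HG read 106, 104, 69.9, 67.9 and 71.0 CPM at 0 h and 61.9, 69.9 and 54.9 at 2 h, so the groups overlapped. Its 2 h change was -0.43 (adjusted p 0.026), with -0.93 in run 1 and -0.08 in run 2, and it did not pass without the 2 h library of run 1 (0.41, range over alternatives 0.00767 to 0.496). DLEU2 changed by -0.30 at 2 h (adjusted p 0.0051), with -0.53 in run 1 and -0.16 in run 2, and stood at 0.05 without that library (range 0.000682 to 0.122). At 6 and 24 h DLEU2 changed by -0.03 and -0.02. DLEU2 overlaps TRIM13, a ubiquitin ligase gene, by 21460 bp.

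MIR155HG read 60.2, 49.0, 49.8, 49.7 and 52.0 CPM at 0 h, 46.9, 43.6 and 44.1 at 2 h, 40.8, 41.6, 37.0 and 40.3 at 6 h, and 40.1 and 41.8 at 24 h. All treated libraries lay below all 0 h libraries, yet the change was small, -0.23 ± 0.08, -0.34 ± 0.08 and -0.35 ± 0.10 (adjusted p 0.041, 0.0089 and 0.031). The 6 h value did not pass without the 0 h library of run 3 (0.061). The 2 h value failed under 14 of 22 alternatives (range 0.021 to 0.217), highest without the 2 h library of run 1, and the 24 h value under 7 of 22 (range 0.00364 to 0.195), highest without the 24 h library A. MIR181A1HG read 490 and 400 CPM in run 1 at 0 h, 184 and 185 in run 2 and 238 in run 3, and 152, 137 and 177 at 2 h. Its 2 h change was -0.74 ± 0.15 (adjusted p 0.0026), with -1.33 in run 1 and -0.36 in run 2.

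The hosts of small nucleolar RNAs, whose introns yield guides of ribosomal RNA modification, held 3 rises of 10 at 2 h, and 1 at each later time, where 19.7%, 13.5% and 10.8% of all transcripts were higher. By edgeR or DESeq2 0 fell, with 0, 1 and 0 lower at an unadjusted p under 0.05. SNHG12 rose by 0.39 ± 0.06 and 0.28 ± 0.06 at 2 and 6 h (adjusted p 0.0004 and 0.0042). Its libraries read 72.4, 70.6, 80.4, 88.6 and 92.9 CPM at 0 h, 116, 125 and 91.3 at 2 h, 105, 115, 102 and 96.9 at 6 h, and 111 and 112 at 24 h. The 2 h library of run 1 was inside the 0 h range of all runs and above both 0 h libraries of its own run. Its 24 h value of 0.29 (adjusted p 0.012) did not pass without either 24 h library (0.085 without A, 0.092 without B). GAS5 did not pass at any time.

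A list of 42 well-known noncoding RNAs had 20 members in the tables. 2 rose and 8 fell at 2 h, 2 rose and 6 fell at 6 h, and 1 rose and 6 fell at 24 h, with median log2 changes of -0.21, -0.13 and -0.08 against 0.07, 0.06 and 0.09 over all noncoding transcripts. Of all transcripts 19.7%, 13.5% and 10.8% were higher at these times and 18.9%, 13.4% and 9.08% lower. KCNQ1OT1, the imprinted antisense RNA of the KCNQ1 locus, rose by 0.39 ± 0.07 at 6 h and 0.42 ± 0.08 at 24 h (adjusted p 0.001 and 0.0029), from 136 to 174 CPM at 0 h to 202 to 244. At 2 h it changed by 0.29, which did not pass without the 2 h library of run 1 (0.055). DLEU1, a deleted-in-leukaemia transcript, changed by -0.54 ± 0.12, -0.50 ± 0.12 and -0.72 ± 0.15 at 2, 6 and 24 h (adjusted p 0.0036, 0.0085 and 0.0048). PVT1, at 2194 CPM at 0 h, changed by -0.25, -0.42 and -0.19 (adjusted p 0.00115, 4.1e-05 and 0.028). MALAT1, NEAT1, TUG1, OIP5-AS1, HOTAIRM1, CRNDE, LINC00152 and WT1-AS did not pass at any time.

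A list of 44 genes whose products make or destroy such RNAs had 39 symbols in the tables, as 40 transcripts. Of these 7 rose and 9 fell at 2 h, 3 rose and 6 fell at 6 h, and 0 rose and 4 fell at 24 h by edgeR. DESeq2 called 0 higher at 24 h too, and 2 were higher at an unadjusted p under 0.05. Over all transcripts 19.7%, 13.5% and 10.8% were higher at the 3 times and 18.9%, 13.4% and 9.08% lower. The median log2 changes were -0.06, -0.08 and -0.12.

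Each transcript was then set against its nearest coding transcript by coordinates. Over the 843 pairs the 2 h changes had a Spearman correlation of 0.31, and 0.17 and 0.15 at 6 and 24 h. Coding transcripts and their nearest coding neighbours gave 0.30, 0.15 and 0.20 over 9461 pairs. Both sets are descriptions, since the pairs share libraries and some share reads. At 2 h both members rose in 64 pairs and both fell in 31. The noncoding transcript rose and the coding one fell in 19, and the reverse held in 13. The noncoding transcript alone rose in 117 and alone fell in 50. Among the 9461 coding pairs at 2 h both rose in 596 and both fell in 525. The coding transcript rose and its neighbour fell in 164, and the reverse held in 205. It alone rose in 1074 and alone fell in 1121. Differences between the 2 sets of pairs were not tested.

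The noncoding transcript's change differed from that of its neighbour in 169 pairs upward and 87 downward at 2 h, where 33.4% of all transcripts were called, 16.1% higher and 17.3% lower (limma). At 6 h the counts were 157 and 102, where 31.7% were called, 15.5% higher and 16.2% lower. At 24 h they were 147 and 75, where 23.8% were called, 11.8% higher and 11.9% lower. Without the 6 h library A of run 2 the 6 h total of 259 was 165, and the 24 h total of 222 was 89 without library A and 94 without library B.

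For 188 noncoding transcripts the nearest coding transcript was on the opposite strand with its start within 1000 bp. Of these 55, 46 and 43 rose at 2, 6 and 24 h and 13, 11 and 7 fell, with median log2 changes of 0.16, 0.17 and 0.23. These are 29.3%, 24.5% and 22.9% higher and 6.91%, 5.85% and 3.72% lower. Coding transcripts in the same arrangement, 1202 in number, had 24.9%, 15.9% and 10.15% higher and 11.8%, 9.73% and 6.32% lower and medians of 0.07, 0.05 and 0.03. Over all transcripts 19.7%, 13.5% and 10.8% were higher and 18.9%, 13.4% and 9.08% lower. The difference between the noncoding and coding sets was not tested. The Spearman correlation within the 188 pairs was 0.43, 0.18 and 0.11, against 0.44, 0.22 and 0.28 for the 1202 coding transcripts. The noncoding member changed more upward than its partner in 45, 48 and 45 pairs and more downward in 12, 17 and 10. Of the 1202, 174, 175 and 130 changed more upward and 176, 180 and 129 more downward. A coding pair can enter from both sides with opposite signs, so those counts tend to be even. Over all transcripts this test called 16.1%, 15.5% and 11.8% higher and 17.3%, 16.2% and 11.9% lower. SLC2A1-DT, DNAJC27-AS1 and DDX11-AS1 belong to the 188.

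**Figure D5:**
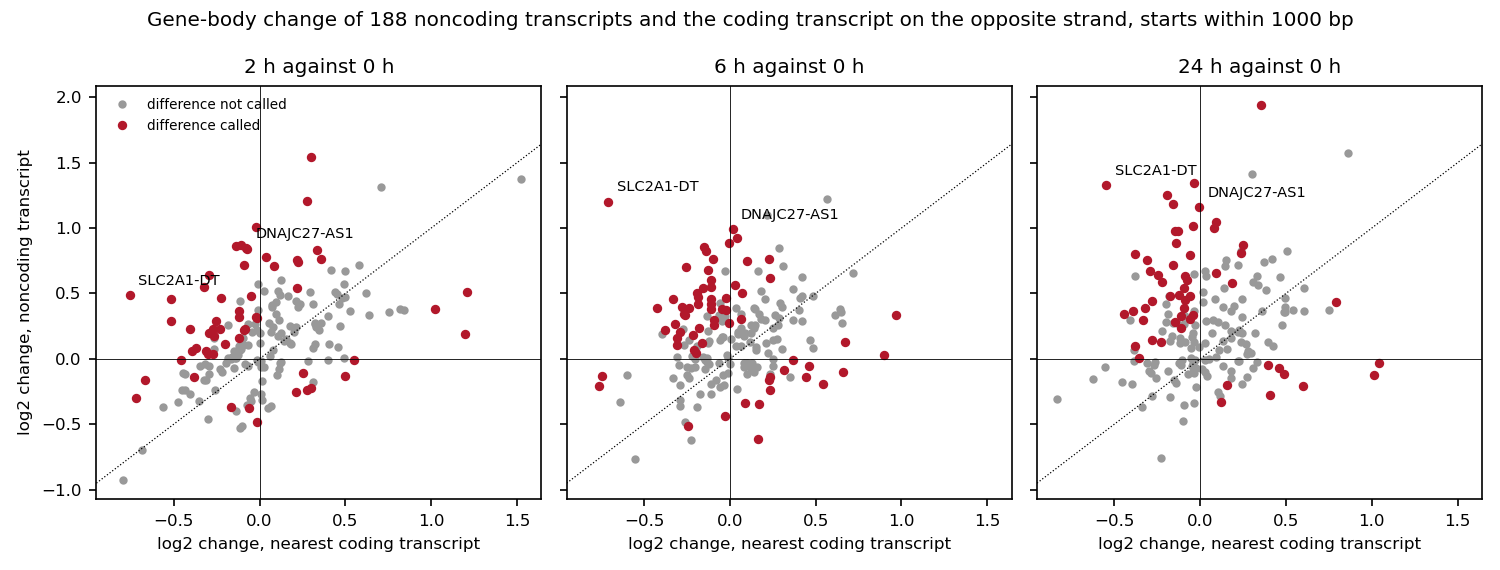
Gene-body log2 change of a noncoding transcript (y axis) against that of the coding transcript on the opposite strand (x axis) at 2, 6 and 24 h, for the 188 pairs with starts within 1000 bp; red marks pairs whose difference passed the limma test and the dotted line marks equal change. More red points lie above the line than below it, 45 against 12 at 2 h, and SLC2A1-DT lies to the upper left. Over all transcripts this test called 16.1% higher and 17.3% lower at 2 h.

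Near promoters few noncoding transcripts were called. Of 843, 797 passed the filter on low counts there. At 2 h 15 rose and 22 fell, where 4.61% of 9980 transcripts were called, 2.43% higher and 2.17% lower. At 6 h 7 rose and 12 fell, where 2.24% were called, 0.802% higher and 1.44% lower. At 24 h 5 rose and 5 fell, where 1.41% were called, 0.631% higher and 0.782% lower. With gene-body size factors applied to both regions, the median of all promoter-proximal changes moved to -0.16, -0.23 and -0.23. The calls were then 3 higher and 0 lower at 2 h, 0 and 5 at 6 h, and 1 and 0 at 24 h, so the split of directions near promoters moved with the scaling. Single libraries also moved these counts. The 2 h total of 37 was 10, 13 and 14 without each of the 2 h libraries (A and B of run 2, B of run 1), 15 and 16 without the 0 h libraries A and B of run 2, and 24 and 61 without the 6 h libraries A of run 2 and A of run 3. The 6 h total of 19 was 36 without the 0 h library A of run 1, 2 without that of run 3, 6 without either of run 2, 9 without the 2 h library B of run 2, and 5, 1 and 8 without the 6 h libraries A and B of run 2 and B of run 3. The 24 h total of 10 was 16 without the 0 h library A of run 1 or the 6 h library A of run 3, 1 without either 0 h library of run 2, 5 without the 2 h library B of run 2, and 0 and 2 without the 24 h libraries A and B.

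LINC00265 read 24.3, 23.1, 30.1, 24.97 and 19.03 CPM near its promoter at 0 h, 53.3, 50.5 and 41.9 at 2 h, 57.1, 94.6, 37.1 and 62.2 at 6 h, and 66.7 and 76.0 at 24 h, with no overlap between treated and 0 h libraries. It rose by 1.32 ± 0.25 at 6 h relative to all promoters (adjusted p 0.0083), though not without the 6 h library B of run 2 (0.093), and over the alternatives the value ranged from 0.000335 to 0.146. RAB4B-EGLN2, a readthrough transcript whose reads may come from either gene it joins, read 28.9, 16.0, 51.9, 18.9 and 15.9 CPM at 0 h, 53.3, 54.0 and 65.9 at 2 h, 37.0, 45.2, 62.5 and 83.2 at 6 h, and 80.7 and 58.4 at 24 h. The run 3 library at 0 h overlapped the 6 h libraries. Its change was 1.49 ± 0.23 at 2 h (adjusted p 0.0019), which did not pass without a run term or with gene-body size factors (0.23 and 0.063, range over alternatives 2.69e-06 to 0.227). The NR_ isoform of WAC, a gene of histone H2B ubiquitylation, changed by -1.03 ± 0.22 at 2 h (adjusted p 0.0126). Its level went from 31.1 to 46.7 CPM at 0 h to 16.0 to 25.5. Without the 2 h library B of run 2 or of run 1 it did not pass (0.063 and 0.085, range over alternatives 0.00087 to 0.166). With gene-body size factors, all 20 promoter-proximal calls examined in this way, these included, failed. Without a run term 16 failed.

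The promoter-proximal change differed from the gene-body change in 4 members upward and 9 downward at 2 h, where 1.15% of all transcripts were called, 0.441% higher and 0.711% lower (limma). At 6 h it did in 0 and 2, where 0.391% were called, 0.15% higher and 0.24% lower, and at 24 h in 0 and 2, where 0.251% were, 0.0701% higher and 0.18% lower. At an unadjusted p under 0.05, 33 were higher at each of these times. HCG27 and FLJ42289 were the pair at 6 h, at -1.06 and -1.21, and CACTIN-AS1 (C19orf29-AS1) and KCNJ5-AS1 (C11orf45) the pair at 24 h, at -1.49 and -1.76. The 2 h total of 13 was 0 without the 0 h library A or B of run 2, 1 without any 2 h library, 4 and 3 without the 6 h libraries A and B of run 2, 20 without the 6 h library A of run 3, and 8 without either 24 h library. The 6 h total of 2 was 0 without any 0 h library of runs 2 and 3, any 6 h library or the 2 h library B of run 2, 5 and 4 without the 0 h libraries A and B of run 1, and 1 without either 24 h library. The 24 h total of 2 was 0 without either 0 h, 6 h or 24 h library of run 2, 1 without the 2 h library B of run 2, and 4 to 11 without a 0 h library of run 1 or 3, the 2 h library A of run 2 or B of run 1, or the 6 h library A of run 3.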

How the data were processed

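PRO-seq libraries of tagged Kasumi-1 cells were analysed from 6 deposited tables, which hold raw read counts that the authors made per transcript for gene bodies and promoter-proximal regions. The authors' deposited log2 fold changes and adjusted p-values came from DESeq2, per the file headers. At an adjusted p under 0.05 the authors' deposited tables called 203 higher and 99 lower noncoding transcripts in gene bodies at 2 h, 142 and 103 at 6 h, and 146 and 56 at 24 h. Near promoters the authors' deposited tables called 4 and 3, 0 and 4, and 2 and 0. Reads were handled with Bowtie2 2.2.2, Trimmomatic 0.32, HOMER, SAMtools, DESeq and DESeq2 on hg19 (GRCh37), per the submitters' processing notes, which give no roles. The strand and windows of counting were not given in the sources used here. The deposited normalized columns, 84 in all with 14 per file, were not used, and the 2 parental samples were not analysed.

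Counts of all transcripts were fitted in R 4.3.3 with edgeR 4.0.16 (default expression filter by time, TMM, quasi-likelihood F-test, terms for time and run), with Benjamini-Hochberg adjustment over all transcripts tested and a threshold of 0.05. Differences between regions and between neighbours were tested with limma 3.58.1 on per-library log2 CPM with a prior count of 2. The nearest coding transcript was the closest NM_ transcript of another symbol by listed coordinates. DESeq2 1.42.0, other scalings, filters and thresholds, subsets of runs and left-out libraries were alternatives. The fits were also run on simulated counts in which a change was the same in every run. These do not cover changes that differ between runs, as many did at 2 h. Levels are CPM after TMM, and values with ± carry the model's SE. Strands came from RefSeq for 581 transcripts and from GENCODE 29 for 205, and 57 had none.

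The members and gene lists were chosen with earlier results of these data known. Named transcripts were the 8 largest rises and falls per time above a mean of 100 normalized counts (near promoters 5, above 50), those called at all 3 times with the smallest adjusted p, up to 4 per class, the hosts and the list of known RNAs, and the 5 smallest adjusted p of each difference. Of these, a subset is described.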

Additional observations from a re-analysis of the deposited data

Results flagged for a closer look

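For 55 transcripts described or considered above, the libraries of the 0 h and 6 h groups were compared with each other (groups of 4 and 5, 110 in all). In 5 groups 1 library stood apart from the rest, where chance alone gives about 1 in 20. At 0 h these were BALR6 (LOC339862), at 465 CPM in the library of run 3, MIR155HG, at 60.21 CPM in library A of run 1, and LINC01569 (LOC100507501), at 28.0 CPM in library B of run 1. At 6 h they were LINC00592 (LOC283404), at 37.52 CPM, and LINC02453 (LOC643770), at 8.92 CPM, both in library B of run 2.

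For 21 of the 55 the change differed between runs by edgeR's interaction test. The 2 h difference, run 1 minus run 2 on the log2 scale, was largest for LOC400604 (1.698), LOC100129722 (1.585), MGC23284 (1.481), LOC96610 (1.414), IDI2-AS1 (1.404) and CIRBP-AS1 (1.395). It was 1.313 for LOC440028, 1.299 for LOC283335, 1.016 for LINC00310, 0.9824 for LINC00263, 0.9002 for CALHM2, 0.8152 for LOC284440 and 0.3206 for KCNQ1OT1. It was negative for the microRNA hosts MIR17HG (-0.8599), DLEU2 (-0.3772) and MIR181A1HG (LOC100131234, -0.9792). It was also negative for ZNF788 (-0.8274), C8orf56 (-0.7728), ALDH1L2 (-0.6706), WAC (-0.3544) and JPX (-0.3498). At 6 h the change of ALDH1L2 in run 3 exceeded that in run 2 by 1.505. IDI2-AS1 changed by 0.16 in run 1 and by -1.34 in run 2.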

How the results depend on the processing

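Counts are given in the order 2, 6 and 24 h. Columns carry a letter and a run, not the replicate numbers of the sample labels. A fit with a replicate block of run and letter, added after seeing the data, gave 208, 199 and 161 gene-body calls, 40, 18 and 14 promoter-proximal calls, 7, 3 and 5 for the difference between regions, and 181, 201 and 179 for that from the neighbour. In run 2 the differences of library A from B at 2 times correlated by -0.0679 to 0.129 across transcripts in gene bodies and by -0.145 to 0.326 near promoters, so the letters were not taken to pair libraries.

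For gene-body calls (294, 239 and 188), leaving out single libraries gave 164 to 304, 130 to 272 and 52 to 230. Leaving out the run term gave 122 at 2 h and 112 at 24 h. A threshold of 0.01 gave 158, 108 and 83, and a change of at least 1.5-fold 92, 74 and 93. Run 2 alone gave 369 at 6 h and 385 at 24 h. Fitting only the groups compared gave 150 at 2 h. The other gene-body counts were within 1.5 times, DESeq2 included, and rises outnumbered falls in each of these settings.

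For promoter-proximal calls (37, 19 and 10), single libraries gave 10 to 61, 1 to 36 and 0 to 16. No run term gave 0 at 2 h and 2 at 24 h. DESeq2 with a run term gave 33 at 6 h and 16 at 24 h. A threshold of 0.01 gave 5, 3 and 1. Run 2 alone gave 141, 74 and 115. Only the groups compared gave 18, 8 and 5. Gene-body size factors gave 3, 5 and 1. Runs 2 and 3 together, an alternative added after seeing the data, gave 47 at 6 h and 26 at 24 h.

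For the difference between regions (13, 2 and 2), single libraries gave 0 to 20, 0 to 5 and 0 to 11. No run term gave 0, 1 and 0. Run 2 alone gave 76, 19 and 91. Runs 2 and 3 gave 11 at 6 h and 19 at 24 h. A threshold of 0.01 gave 1, 0 and 0.

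For the difference from the neighbour (256, 259 and 222), single libraries gave 174 to 261, 165 to 301 and 89 to 269. No run term gave 128 at 2 h, run 2 alone 339 at 24 h, and a threshold of 0.01 135, 133 and 96.

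Among named calls none changed direction in the alternatives, but many did not pass. Without a run term 35 of 122 gene-body calls failed, as did 26 of 93 differences from the neighbour. With only the groups compared 20 of the 122 failed, while with DESeq2 121 passed. All 20 promoter-proximal calls failed with gene-body size factors. Only run 2 was fitted alone, so a reversal within another run could not appear. IDI2-AS1, as given above, changed in opposite directions between runs at 2 h. Promoter-proximal totals per library were lower than gene-body totals. Where a count moved, the cause was not tested, beyond a stricter threshold or fewer libraries.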
